A study of Drosophila melanogaster with 8 samples.

Results

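The glutathione S-transferase (Gst) and UDP-glycosyltransferase (Ugt) genes of Drosophila were followed in RNA-seq of adult heads. Members were all gene symbols that start with Gst and a capital letter or with Ugt and a digit, which gave 52 of the 16727 symbols listed, 35 Gst and 17 Ugt genes. The Gst genes were 11 of class delta (GstD), 14 epsilon (GstE), 3 omega (GstO), 1 sigma (GstS1), 4 theta (GstT) and 2 zeta (GstZ). The annotation holds 18 more Ugt genes that the files list under other symbols, and these lie outside the rule. Heads were compared between Top3b26, a mutant of Topoisomerase 3beta made by remobilizing a P-element and sampled as 4 libraries, and w1118, the control strain, also 4 libraries. All flies were adults of 1 to 2 weeks, kept at 25 °C on a 12 h light and 12 h dark cycle, and their heads were collected by freezing and sieving. Sex was not given, and no label says whether replicates came from separate cultures, so the p-values measure the spread between these libraries, which may be technical.

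Glutathione S-transferases join the tripeptide glutathione to electrophilic compounds such as insecticides and the aldehydes of oxidized lipids. UDP-glycosyltransferases attach a sugar, in insects mostly glucose, to small lipophilic molecules. The products of both families are more water-soluble and are exported. In fly heads such enzymes are known from fat body, glia, antennal support cells and the eye, and many of their genes lie in tandem arrays. Transcription of several Gst genes, GstD1 above all, is known to be driven by the factor CncC, which Keap1 holds in check.

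The libraries held 4816757 to 6685891 counts on genes for Top3b26 and 3301976 to 7591510 for w1118, so that 3 counts correspond to 0.395 to 0.909 counts per 1000000 (CPM), a floor that covers counting error only. Top3beta itself had 510, 534, 214 and 276 counts in the libraries labelled Top3b26, against 215, 134, 175 and 181 in those labelled w1118. Its log2 fold change was 0.90 ± 0.24 (SE, edgeR adjusted p = 0.157), and with a term for the replicate set, described next, it was called higher (0.86 ± 0.12, adjusted p = 0.00172). A higher count goes against a loss of transcript in the mutant. The part of the gene that the allele removes was not read here, so every direction below rests on the labels. Libraries also differed by replicate number in both genotypes. A header line is found only in the files of replicates 1 and 2, and the 2 sets of libraries differ in level: 20.3% of the 9633 genes tested were higher and 15.2% lower in replicates 3 and 4 (edgeR adjusted p of at most 0.05). Neuron markers elav, nSyb, Syt1 and brp summed to 4818 to 7119 CPM in the libraries labelled Top3b26 and 4115 to 5589 CPM in those labelled w1118. Photoreceptor markers (ninaE, ninaC, trp, chp) summed to 893 and 890 CPM in Top3b26 replicates 1 and 2 and to 15771 and 19946 CPM in Top3b26 replicates 3 and 4, against 22027 to 30161 CPM in w1118. Head fat body markers (Lsp2, Yp1, Yp2, Rfabg, to), of which none was at 0, summed to 6490 to 11193 CPM in Top3b26, against 9531 and 6918 CPM in w1118 replicates 1 and 2 and 28950 and 39610 CPM in w1118 replicates 3 and 4. Yp1 (10678 CPM) and Yp2 (5434 CPM) had the highest w1118 means of these markers and weigh most in the sum. The marker to went the other way, with 36.1 CPM in Top3b26 and 27.3 CPM in w1118. In whole heads, fewer cells of a type and less RNA per cell cannot be told apart. Sex was not given, so for the yolk protein genes Yp1 and Yp2 a different share of females cannot be told apart either.

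Together the 52 genes took 0.113% to 0.133% of the gene counts in the libraries labelled Top3b26 and 0.102% to 0.135% in those labelled w1118. Levels between genes are compared per exon length, as CPM divided by kilobases of exon (RPKM). GstD1, whose enzyme is known for breaking down DDT, was highest at 267 ± 20.9 RPKM in Top3b26 and 236 ± 21.4 RPKM in w1118 (SD, n = 4 each). GstE12 followed with 144 ± 13.1 RPKM in Top3b26 and 152 ± 17.4 RPKM in w1118. These 2 genes made up 21.9% and 21.4% of the mean Gst CPM over all libraries. Among Ugt genes, Ugt86Da had 37.5 ± 2.1 RPKM in Top3b26 and 27.8 ± 5.95 RPKM in w1118, Ugt36Bc 28.7 ± 8.13 and 26.9 ± 3.48 RPKM, and Ugt35b 23.0 ± 2.26 and 33.1 ± 16.5 RPKM. In w1118 the spreads of these 3 genes overlap, so their order there is not settled. At the other end, GstD7 and Ugt36Bb had 0 counts in all 8 libraries, which allows up to 0.395 CPM in the deepest one.

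**Figure D1:**
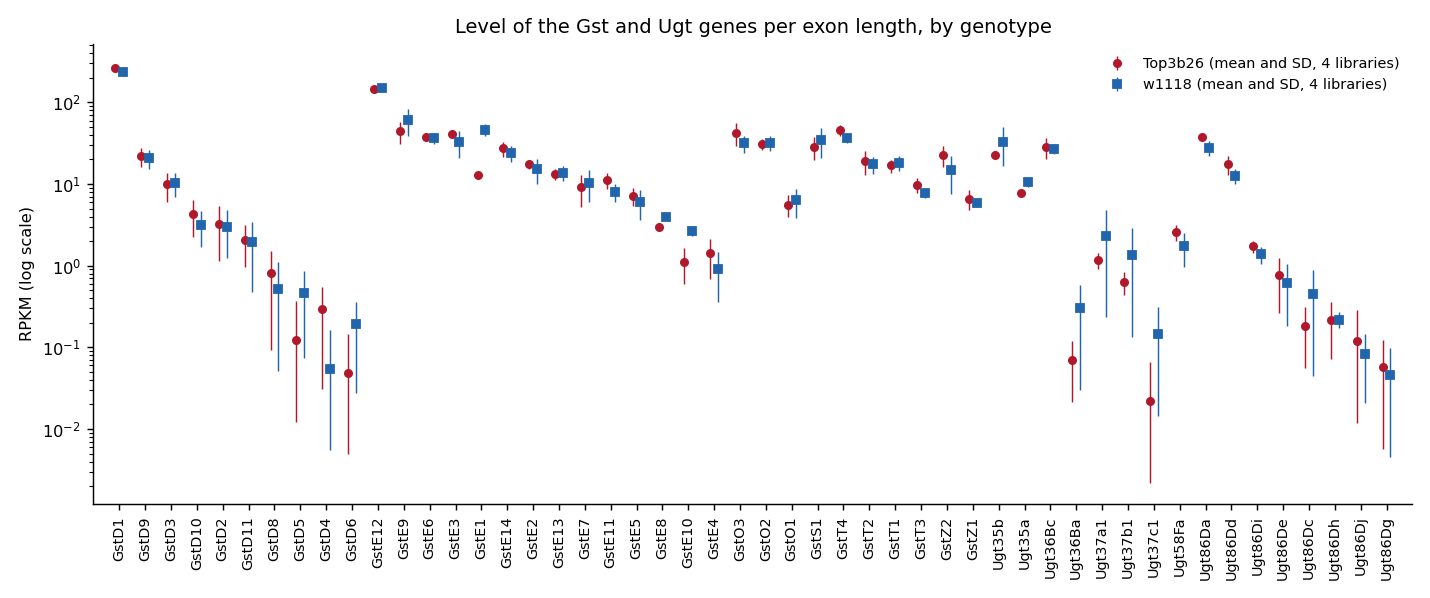
RPKM (log scale) of the 50 members with any count, Top3b26 in red and w1118 in blue, points and bars giving the mean and SD of 4 libraries; a lower bar that would reach 0 is cut short. GstD1 and GstE12 stand above the rest, and most pairs of points lie together, while GstE1 is at 13.0 RPKM in Top3b26 and 46.5 RPKM in w1118.

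Of the 52 members, 37 passed the filter on low counts, and 1 of them was called as changed between the genotypes: GstE1 was lower, 3.93-fold. A change was called where the edgeR adjusted p was 0.05 or less and the fold 1.5 or more. By that rule 0 of 37 members were higher in the libraries labelled Top3b26, where 0.249% of all 9633 genes tested were, and 1 was lower, where 0.664% of all genes were. DESeq2 also called 0 members higher, and 4 of the 37 had an unadjusted edgeR p of at most 0.05, beside 1192 of the 9633 genes tested. The median log2 fold change was 0.01 over the 29 Gst genes and 0.08 over the 8 Ugt genes, beside −0.01 over all genes tested. Log2 fold changes stayed within 0.5 of zero for 30 of 37 members (81.1%), beside 86.2% of all genes, and were positive for 19 and negative for 18. They ran from −1.97 for GstE1 to 0.45 for GstZ2. With a term for the replicate set (1 and 2 against 3 and 4), the background rose to 1.41% higher and 4.18% lower, and the members called were 0 higher and 2 lower, GstE1 and GstE10. In that fit GstE9, GstZ2 and Ugt35a also had adjusted p under 0.05, each at a fold under 1.5. With a block for each replicate number the background was 0.914% higher and 2.91% lower, and GstE1 was the member called.

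**Figure D2:**
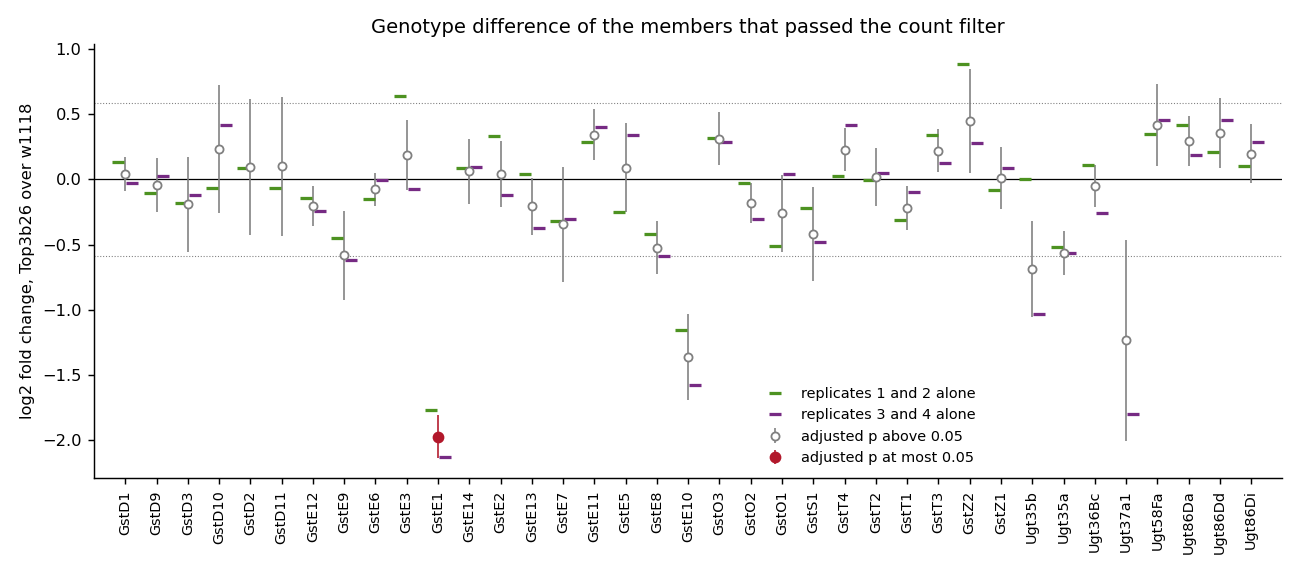
Log2 fold change, Top3b26 over w1118, of the 37 members that passed the filter, with SE bars from all 8 libraries, and the values within replicates 1 and 2 (green dashes) and within replicates 3 and 4 (purple dashes); dotted lines mark a fold of 1.5. GstE1 at −1.97 is the filled point, and Ugt35b and Ugt37a1 are low in replicates 3 and 4 alone.

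GstE1 encodes an epsilon class transferase, a class known for insecticide and lipid aldehyde metabolism. It is a gene of 1 exon block, 831 bases long, on the plus strand of 2R (18398393 to 18399223, dm6). It had 64, 73, 49 and 70 counts in the libraries labelled Top3b26, against 226, 109, 295 and 295 in those labelled w1118. As CPM these were 11.5, 10.9, 10.2 and 10.7 in Top3b26, against 35.8, 33.0, 46.8 and 38.9 in w1118. The genotypes do not overlap, and the lowest w1118 library was well above the highest Top3b26 library. Means were 10.8 ± 0.543 CPM in Top3b26 and 38.6 ± 5.98 CPM in w1118 (SD, n = 4 each), and the log2 fold change was −1.97 ± 0.17 (SE, edgeR adjusted p = 0.0011). By level per length it ranked 21 of the 52 members in Top3b26 and 4 in w1118. The change was present in both replicate sets, −1.77 ± 0.21 in replicates 1 and 2 (adjusted p = 1.2e-06) and −2.13 ± 0.15 in replicates 3 and 4 (adjusted p = 5.03e-06), and its difference between them had an edgeR adjusted p of 0.415. Photoreceptor markers were lower in Top3b26 in both sets, by more in replicates 1 and 2. The sum of head fat body markers was lower in Top3b26 in replicates 3 and 4, though to was higher over all libraries. The part of these cell types, or of the sex of the flies, in the GstE1 difference was not tested. In 12 fits that each left out a library or a replicate number of both genotypes, GstE1 was called every time, with log2 fold changes of −2.05 to −1.83.

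GstE10, an epsilon gene at 2R 18396638 to 18398519 on the minus strand, lies head to head with GstE1, and their annotated ends share 127 bases. Whether reads were counted by strand is not given in the sources used here, so reads in the shared stretch cannot be assigned to one gene with certainty. GstE10 was low in all libraries, with 5, 14, 4 and 8 counts in those labelled Top3b26, against 20, 10, 22 and 19 in those labelled w1118. As CPM it had 0.898, 2.09, 0.83 and 1.23 in Top3b26, against 3.17, 3.03, 3.49 and 2.50 in w1118. The genotypes do not overlap here either. Its log2 fold change of −1.36 ± 0.33 missed the threshold (edgeR adjusted p = 0.13) and passed it with the replicate set term (−1.35 ± 0.33, adjusted p = 0.0276). That call was lost without w1118 replicate 1, 3 or 4 and without Top3b26 replicate 1, 3 or 4, where the adjusted p was 0.0535 to 0.0837.

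GstE10 and GstE1 begin an array of 10 epsilon genes that runs over 13.2 kb of 2R to GstE9, with GstE1 to GstE9 in one orientation. Of the other 8 genes of the array, GstE4 did not pass the filter, and the 7 tested were not called over all libraries. GstE2, whose start is next to the end of GstE1, had 15.5 ± 1.78 CPM in Top3b26 and 13.6 ± 4.59 CPM in w1118, a log2 fold change of 0.04 ± 0.25. GstE3 was at 31.3 ± 3.45 CPM in Top3b26 and 24.8 ± 8.84 CPM in w1118, and GstE6 at 28.4 ± 2.01 and 27.5 ± 4.38 CPM. GstE5 was at 5.27 ± 1.32 CPM in Top3b26 and 4.47 ± 1.77 CPM in w1118, and GstE7 at 7.0 ± 3.01 and 7.94 ± 3.38 CPM. GstE8 had 3.77, 3.14, 3.11 and 3.53 CPM in Top3b26, against 4.12, 4.24, 4.61 and 4.74 CPM in w1118, without overlap, yet its log2 fold change of −0.52 ± 0.20 was not called (edgeR adjusted p = 0.333). GstE9, the highest of the array in w1118, was at 26.7, 26.2, 38.8 and 47.8 CPM in Top3b26, against 32.0, 33.6, 64.0 and 60.6 CPM in w1118. In each replicate set both Top3b26 libraries lay below both w1118 libraries, but its log2 fold change of −0.58 ± 0.34 was not called over all libraries (edgeR adjusted p = 0.535), and with the replicate set term the adjusted p was 0.00842 at a fold under 1.5. Without GstE1 the array summed to 113 to 152 CPM in Top3b26 and 103 to 176 CPM in w1118, and the ranges overlap. GstE1 was 6.59% to 8.83% of the array's CPM in Top3b26 and 21.0% to 24.3% in w1118.

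**Figure D3:**
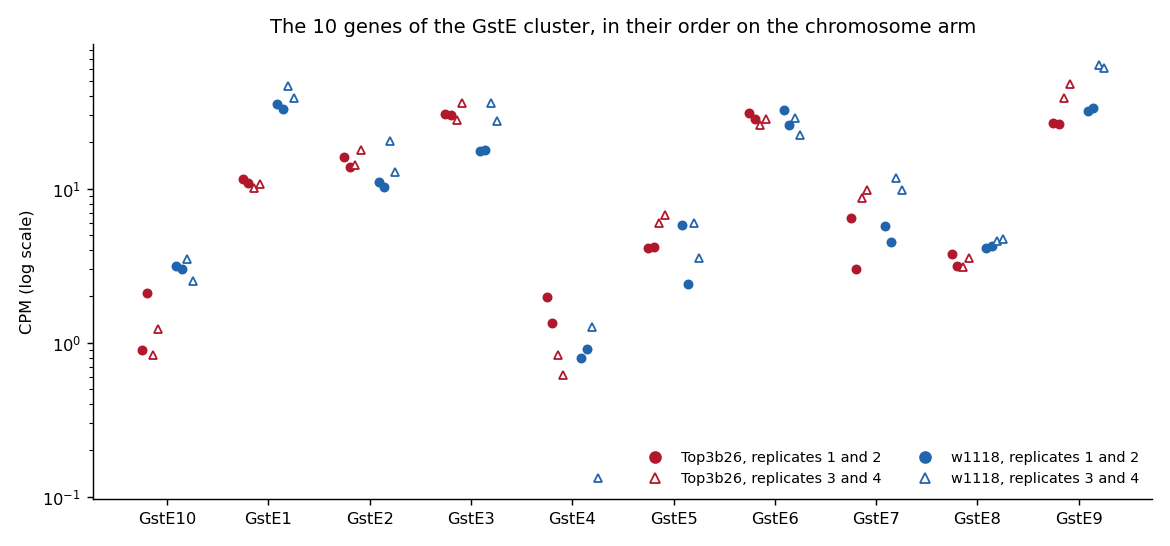
CPM (log scale) in each of the 8 libraries for the 10 genes of the GstE array in their order along 2R, Top3b26 in red left of w1118 in blue, circles for replicates 1 and 2 and triangles for 3 and 4. The genotypes separate at GstE10, GstE1 and GstE8, by most at GstE1 (10.2 to 11.5 CPM in Top3b26, 33.0 to 46.8 CPM in w1118).

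The genes on the GstE10 side of the array were lower too. Within 25 kb of the start of GstE1, 11 genes before GstE10 were tested, and their log2 fold changes ran from −2.34 to −0.76, all below zero. Of these, 5 were called lower and 0 higher without the replicate set term, and 10 lower with it. Several encode small immune-induced peptides, IM2 among them, and the nearest is Idgf5, a chitinase-like growth factor gene 1.36 kb from GstE10. On the other side, 0 of 3 genes tested were called, with log2 fold changes of −0.42 to −0.07. The window was chosen after these values were seen. From GstE2 on, log2 fold changes in the window lay between −0.58 and 0.19, and none of those genes was called over all libraries.

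**Figure D4:**
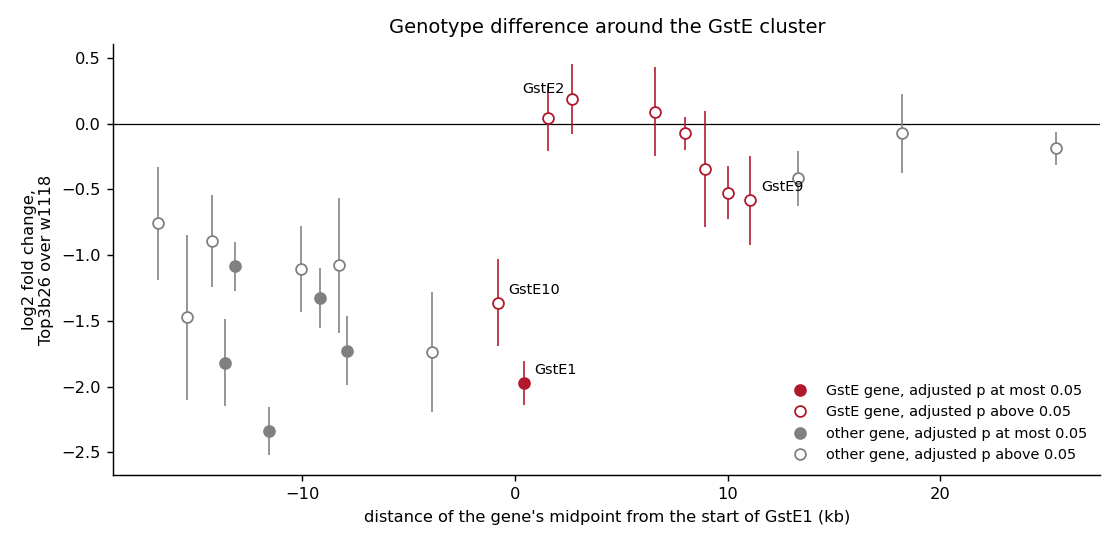
Log2 fold change, Top3b26 over w1118, with SE bars, against the distance of each gene's midpoint from the start of GstE1 in kb, for the 23 genes tested within 25 kb; GstE genes in red, others in grey, filled where the adjusted p is at most 0.05. Points left of GstE2 lie between −2.34 and −0.76, and those from GstE2 on lie between −0.58 and 0.19.

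Of all 9633 genes tested, 7.64% had all libraries labelled Top3b26 above all those labelled w1118 in CPM and 2.58% had them all below. Among the 37 members this held for 1 upward, Ugt86Da, and for 3 downward, GstE1, GstE10 and GstE8, all in the same array. CPM is scaled by the library total alone, under which the median log2 fold change of all genes was 0.12. Lack of overlap in CPM therefore leans toward higher values in Top3b26.

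The 4 epsilon genes elsewhere on 2R were not called. GstE12 (24766718 to 24768172) had 196, 195, 188 and 229 CPM in Top3b26, against 182, 209, 240 and 219 CPM in w1118, and the genotypes overlap (log2 fold change −0.21 ± 0.15). GstE14, known as noppera-bo and needed for ecdysteroid synthesis in the larval gland, had 27.5 ± 5.72 CPM in Top3b26 and 24.1 ± 5.44 CPM in w1118. GstE11, 93.8 kb from the end of the array, was at 10.5 ± 2.3 CPM in Top3b26 and 7.63 ± 1.93 CPM in w1118 (log2 fold change 0.34 ± 0.20, edgeR adjusted p = 0.53). GstE13 was at 14.2 ± 2.21 CPM in Top3b26 and 14.7 ± 3.09 CPM in w1118.

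The delta genes form an array on 3R, and 6 of 11 passed the filter, with log2 fold changes of −0.19 to 0.23 and none called. GstD1 (12367817 to 12369268) had 233, 224, 201 and 243 CPM in Top3b26, against 178, 198, 222 and 199 CPM in w1118, a log2 fold change of 0.04 ± 0.13 (edgeR adjusted p = 0.927). Its genotypes overlap, and the sign turns to −0.026 within replicates 3 and 4. GstD9 followed with 17.3 ± 4.57 CPM in Top3b26 and 16.4 ± 4.39 CPM in w1118. GstD3, GstD10, GstD2 and GstD11 were between 2.2 and 7.65 CPM in mean in either genotype. GstD4, GstD5, GstD6, GstD7 and GstD8 were at or near the floor, with at most 7 counts in any library.

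Among the other cytosolic classes no gene was called. GstS1, the single sigma gene, known as an abundant enzyme of flight muscle that acts on lipid aldehydes, had 49.2, 49.5, 71.4 and 91.5 CPM in Top3b26, against 47.0, 58.1, 100.2 and 112 CPM in w1118. Its values followed the replicate number more than the genotype, with a log2 difference of 1.04 between replicates 3 and 4 and replicates 1 and 2, and a genotype log2 fold change of −0.42 ± 0.36. Muscle markers (Mhc, Act88F, up, wupA) summed to 2590, 2536, 6259 and 6645 CPM in Top3b26 replicates 1 to 4. In w1118 they summed to 1685, 1902, 4875 and 4580 CPM. The part of muscle in the GstS1 values was not tested. GstO2 had 62.8, 57.4, 44.2 and 50.6 CPM in Top3b26, against 43.1, 70.3, 56.1 and 53.1 CPM in w1118 (log2 fold change −0.18 ± 0.16). The omega genes belong to a small 3L group with se, the pteridine eye pigment gene. It too has the glutathione transferase fold but lies outside the rule by its symbol. Its annotated end shares 61 bases with GstO2 on the other strand. GstT4, a theta gene on X, had 55.1, 46.4, 57.1 and 67.1 CPM in Top3b26, against 41.3, 49.4, 49.4 and 37.7 CPM in w1118 (log2 fold change 0.23 ± 0.17). The other theta genes were at 16.8 ± 3.09 CPM in Top3b26 and 18.1 ± 3.74 CPM in w1118 for GstT1, 17 ± 5.52 and 15.5 ± 3.68 CPM for GstT2, and 13.5 ± 2.81 and 10.6 ± 1.40 CPM for GstT3. GstO3 had 37.6 ± 11.8 CPM in Top3b26 and 27.7 ± 6.76 CPM in w1118, and GstO1 5.36 ± 1.57 and 6.04 ± 2.37 CPM. GstZ1 stayed at 6.01 ± 1.61 CPM in Top3b26 and 5.42 ± 0.666 CPM in w1118. GstZ2, whose class includes the maleylacetoacetate isomerase of tyrosine breakdown, had 42.0, 39.8, 56.5 and 71.9 CPM in Top3b26, against 20.1, 19.7, 50.2 and 48.7 CPM in w1118. It was higher in Top3b26 within replicates 1 and 2 (0.89 ± 0.18, edgeR adjusted p = 0.00154) and was not called within replicates 3 and 4 (0.28, adjusted p = 0.221) or over all libraries (0.45 ± 0.40, adjusted p = 0.691). With the replicate set term it was 0.55 ± 0.14 (edgeR adjusted p = 0.0343), at a fold of 1.46, under the 1.5 asked for. The difference between the sets did not pass the edgeR interaction test (adjusted p = 0.0768).

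No Ugt gene was called over all libraries. Ugt86Da, at 3R 11157098 to 11159744, had 76.8, 68.8, 78.3 and 75.6 CPM in Top3b26, against 58.6, 37.9, 63.7 and 61.4 CPM in w1118. Its genotypes do not overlap in CPM, a scaling that leans toward higher values in Top3b26. The log2 fold change of 0.29 ± 0.19, with TMM factors, had an edgeR adjusted p of 0.574. Ugt36Bc had 70.2, 69.1, 40.1 and 44.6 CPM in Top3b26, against 58.4, 57.8, 50.2 and 44.1 CPM in w1118, with a log2 fold change of −0.05 ± 0.16 that turned to 0.092 when scaled by the library total alone. Ugt86Dd, known for nicotine resistance in larvae, had 25.3, 20.9, 33.6 and 38.2 CPM in Top3b26, against 19.2, 16.4, 22.4 and 26.2 CPM in w1118 (0.36 ± 0.27). Ugt35a had 13.5, 13.2, 13.3 and 15.8 CPM in Top3b26, against 15.4, 19.7, 21.0 and 19.4 CPM in w1118. In each replicate set both Top3b26 libraries lay below both w1118 libraries, and its log2 fold change of −0.56 ± 0.17 had an edgeR adjusted p of 0.226. With the replicate set term it was −0.55 ± 0.13 (adjusted p = 0.0239), at a fold of 1.46, under the 1.5 asked for. The remaining tested Ugt genes with no call were low, Ugt58Fa at 4.84 ± 1.12 CPM in Top3b26 and 3.25 ± 1.44 CPM in w1118, and Ugt86Di at 4.4 ± 0.703 and 3.53 ± 0.818 CPM.

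The difference between genotypes in Ugt35b and Ugt37a1 was not the same in the replicate sets. Over all genes, 7.31% had a genotype effect that differed between the sets (edgeR interaction term, adjusted p of at most 0.05), and 2 of the 37 members did. Ugt35b, which lies beside Ugt35a on 3R (11168503 to 11170246), had 35.0 and 35.4 CPM in Top3b26 and 33.2 and 29.7 CPM in w1118 among replicates 1 and 2. Among replicates 3 and 4 it had 40.9 and 42.5 CPM in Top3b26 and 79.1 and 79.3 CPM in w1118. Within replicates 1 and 2 its log2 fold change was 0.0067 (edgeR adjusted p = 0.987), and within replicates 3 and 4 it was −1.03 ± 0.11 (adjusted p = 7.27e-05). The 2 differed by −1.07 ± 0.19 (interaction, adjusted p = 0.00118). Ugt37a1, on 2L, had 8 and 13 counts in Top3b26 and 6 and 1 in w1118 among replicates 1 and 2, then 9 and 16 in Top3b26 and 33 and 67 in w1118 among replicates 3 and 4. The interaction was −2.91 ± 0.76 (edgeR adjusted p = 0.0249, and 0.0519 by DESeq2). Ugt37b1, also on 2L, failed the filter over all libraries but had the same pattern, with 4 and 6 counts in Top3b26 and 0 and 0 in w1118, then 7 and 9 in Top3b26 and 28 and 38 in w1118. In all 3 genes w1118 replicates 3 and 4 stood above the other 6 libraries, as they did for the sum of head fat body markers, 28950 and 39610 CPM against 6490 to 11193 CPM. Yp1 and Yp2 weigh most in that sum, and the marker to was higher in Top3b26 over all libraries (log2 fold change 0.26 ± 0.15, not called). The part of head fat body cells, or of the sex of the flies, in the Ugt values was not tested.

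**Figure D5:**
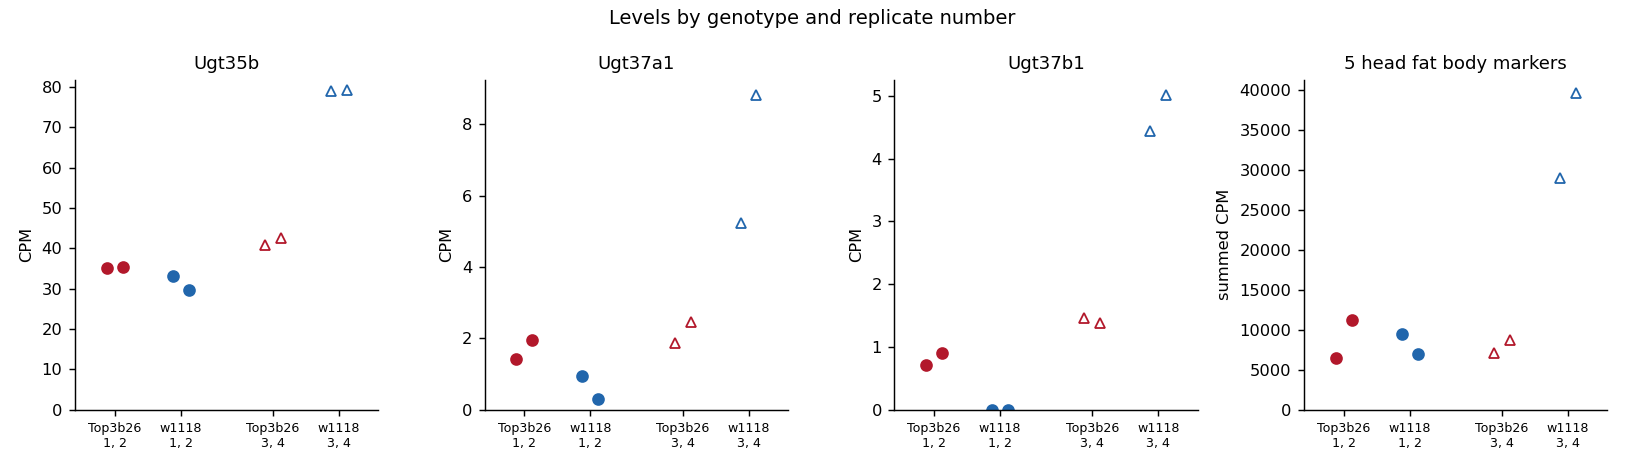
CPM of Ugt35b, Ugt37a1 and Ugt37b1 and summed CPM of 5 head fat body markers in each library, by genotype and replicate number, Top3b26 in red and w1118 in blue. In each panel w1118 replicates 3 and 4 are the highest points, for Ugt35b at 79.1 and 79.3 CPM.

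Within replicates 1 and 2 alone, 2 of 36 members tested were called higher in Top3b26 (GstE3 and GstZ2), where 3.5% of all genes were, and 1 lower (GstE1), where 7.03% were. Within replicates 3 and 4 alone, 0 of 37 members tested were higher, where 1.52% of all genes were, and 6 were lower (GstE1, GstE10, GstE9, Ugt35b, Ugt37a1 and Ugt37b1), where 5.95% were. These fits rest on 2 libraries per genotype. GstE1 alone was called in both.

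The replicate set itself moved members too. Of the 37, 14 were higher and 5 lower in replicates 3 and 4 than in replicates 1 and 2 (edgeR adjusted p of at most 0.05), beside 20.3% and 15.2% of all genes tested. Those higher included GstS1, GstE9, GstZ2 and Ugt35b, and those lower included GstD9, GstO3 and Ugt36Bc.

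Below the filter were 15 members, the highest at a mean of 1.74 CPM. GstD6, GstD7, Ugt36Bb and Ugt86Dg had under 3 counts in every library. For the other 11, exact two-sided permutation tests of mean log2(CPM + 1), for which 4 against 4 libraries allow p = 0.0286 at the least, gave unadjusted p of 0.143 to 0.886, and 0 passed 0.05. GstE4 had 11, 9, 4 and 4 counts in Top3b26, against 5, 3, 8 and 1 in w1118. Ugt36Ba, Ugt37c1, Ugt86Dc, Ugt86De, Ugt86Dh and Ugt86Dj stayed at 15 counts or fewer in every library, a depth at which a difference could hardly be detected. Of the 18 Ugt genes under other symbols, 10 were tested and 0 were called over all libraries. With the replicate set term 2 of the 10 were lower, where 4.18% of all genes were, and with the replicate block also 2, where 2.91% were. DESeq2 called 1 lower, beside 172 of 9633 genes. Within replicates 1 and 2 alone, 2 of 9 tested were lower (7.03% of all genes), and within replicates 3 and 4 alone 3 of 10 (5.95%). None was higher in these fits. Together the 18 summed to 187 to 277 CPM in Top3b26 and 201 to 307 CPM in w1118.

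Genes that supply or accompany these enzymes were read from 7 lists of 51 genes, of which 43 were tested. They covered glutathione synthesis and recycling, CncC and other xenobiotic regulators, peroxide and superoxide enzymes, NADPH and UDP-sugar supply, efflux transporters, and epoxide hydrolases with sulfotransferases. None of the 43 was called over all libraries, where 0.249% of all genes were higher and 0.664% lower. Their median log2 fold change was −0.04, in a range of −1.26 to 0.84. With the replicate set term, 1 was higher, where 1.41% of all genes were, and 1 lower, where 4.18% were. With the replicate block 0 were called, where 0.914% of all genes were higher and 2.91% lower. The gene higher with the replicate set term was Jheh3, a juvenile hormone epoxide hydrolase (log2 fold change 0.75 ± 0.19, edgeR adjusted p = 0.0349). It had 18.7 ± 10.4 CPM in Top3b26 and 9.52 ± 2.54 CPM in w1118. The gene lower was Eip55E, of the pathway from methionine to cysteine (−0.74 ± 0.19, edgeR adjusted p = 0.0341). It had 22.1 ± 4.0 CPM in Top3b26 and 34.3 ± 9.14 CPM in w1118. The cnc gene, which encodes CncC, had 370 ± 21.4 CPM in Top3b26 and 389 ± 38.1 CPM in w1118 (log2 fold change −0.20 ± 0.14, edgeR adjusted p = 0.594). Keap1 had 19.7 ± 2.33 CPM in Top3b26 and 18.8 ± 1.72 CPM in w1118 (−0.07 ± 0.16, adjusted p = 0.894). A further list held 4 genes with the glutathione transferase fold outside the rule: se, gfzf, Clic and Ef1gamma. Of these 0 were called without a block, with the replicate set term or with the replicate block. The log2 fold change of se was −0.43 ± 0.22 (edgeR adjusted p = 0.473). With the replicate set term Ef1gamma was at −0.47 ± 0.12 (edgeR adjusted p = 0.0337), a fold under 1.5.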

How the data were processed

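Heads of Top3b26 and w1118 flies were sequenced, 4 libraries each. The authors mapped reads to dm6 with TopHat and deposited 1 table of raw read counts for each library, listed by gene symbol and not normalized. The version is 2.1.1 in the submitters' processing notes, and the counting tool and its strand setting are not given in the sources used here. Reads with several alignments, 16.6% to 30.4% of those listed, entered no gene, which lowers near-identical copies. The header of w1118 replicate 2 says CPM, but its values are whole numbers and were used as counts. Gene positions came from the dm6 annotation of Ensembl release 115. All 52 members were matched, 35 by symbol and 17 by an older symbol, and 7 (GstE1, GstE10, GstE9, GstE12, GstE13, GstO2, GstT2) overlap a neighbour on the other strand. Promoter and protein sequences were not analysed here.

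CPM and RPKM were scaled to the total on genes, without TMM factors. Small fold changes can therefore differ in sign from the CPM means, as for Ugt36Bc and Keap1. Fold changes came from edgeR 4.0.16 (R 4.3.3) on all genes, with filterByExpr, TMM factors, the quasi-likelihood test and Benjamini-Hochberg adjustment over all genes tested. Each SE was derived from the fold change and the F statistic. Fits within a replicate set used its 4 libraries. Members that the filter removed were compared by exact permutation tests with a pseudocount of 1 CPM. DESeq2 1.42.0, other scalings, filters and left-out libraries were alternatives. Tests were checked on simulated counts. No p was adjusted over the members alone.

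Same-numbered libraries of the genotypes deviated together (correlations across genes of 0.437 to 0.647, mean 0.545). Differently numbered libraries of the same set did so as much (0.527 to 0.622, mean 0.565). The correlations thus show the sets and no pairing by number beyond them. The replicate block rests on the labels' replicate numbers alone. The paper's methods name 3 RNA preparations, while the labels give 4 replicates. The members and lists were chosen with earlier results of these data known. Values per library are given for members called with no block, with the replicate set term or with the replicate block, and for the 5 members highest in CPM in each family, and members called in 1 replicate set and those singled out for lack of overlap were added after their values were seen.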

Additional observations from a re-analysis of the deposited data

Results flagged for a closer look

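The genotype difference of Ugt35b was not the same in the replicate sets: the log2 fold change in replicates 3 and 4 minus that in replicates 1 and 2 was −1.07 (edgeR interaction, adjusted p = 0.00118). For Ugt37a1 this difference was −2.91 (adjusted p = 0.0249), on 1 to 16 counts in every library but w1118 replicates 3 and 4. In Ugt35a, Top3b26 replicate 4 lay apart from the other 3 Top3b26 libraries (15.8 CPM, against 13.2 to 13.5 CPM), with a gap that was 0.885 of the range of the 4. Of 28 groups of 4 libraries examined in this way 1 was so marked, and chance marks about 1 in 20.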

How the results depend on the processing

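GstE1 was called lower under each alternative run. Members called lower were 2 with the replicate set term and 6 within replicates 3 and 4, and members called higher were 2 within replicates 1 and 2. Each fit with libraries left out and no replicate set term gave 0 higher and 1 lower. Over all genes, 24 higher and 64 lower calls became 60 and 172 with DESeq2, 136 and 403 with the replicate set term, 339 and 681 within replicates 1 and 2, and 147 and 575 within replicates 3 and 4. Leaving out libraries without the replicate set term gave 2 to 15 higher and 15 to 48 lower. With the replicate block (pairing by number) they were 88 and 280, and the block changed no call among the members. Members whose effect differed between sets, 2, were 4 without the low-count filter (GstE3 and Ugt37b1 added) and 1 by DESeq2.

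Small fold changes turned sign: GstD1 to −0.026 within replicates 3 and 4 and −0.031 to 0.16 with libraries left out, Ugt36Bc to 0.092 by library total, 0.11 within replicates 1 and 2 and −0.14 to 0.071 with libraries left out, Ugt35b to 0.0067 within replicates 1 and 2, and, with a pseudocount of 0.1, Ugt37b1 to 0.75 and Ugt86Dj to −0.037. The cause of these sign changes was not tested. Within replicates 3 and 4 the median of the Ugt family was −0.32 over 10 genes, where 8 were tested over all libraries. Ugt37b1 (−1.84) and Ugt86De (−0.38) were added there, having failed the filter over all libraries, so the 2 medians are not comparable. Scaling by library total raised the median log2 fold change of all genes to 0.12. Leaving out each library with the replicate set term was added after the data were seen. Differences at or under 3 counts per library, 0.395 to 0.909 CPM, could not be detected.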
